A study of Mus musculus with 29 samples.

Results

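Collagen chains are the subunits of the collagens, the main structural proteins of scars, vessel walls and the meninges, and the 44 mouse genes that encode them were followed through brain tissue after stroke. They were all genes of the count files whose Ensembl ID maps to a symbol made of Col, a type number, the letter a and a chain number, out of 25746 genes in the files. The genes were grouped by what their chains build: 11 fibrillar genes (types I, II, III, V, XI, XXIV and XXVII), 8 basement membrane genes (type IV with types XV and XVIII) and 25 others. All 44 passed the filter on low counts, and 43 had a count in each of the 29 samples, the exception being Col10a1 with counts in 24.

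The study closed cortical vessels of the sensorimotor cortex by light (photothrombotic stroke) in mice of both sexes aged 3 months and sequenced brain RNA at 21 days post injury (dpi). Wildtype (WT) C57BL/6 mice were non-stroked (n = 4), stroked (n = 4), or stroked and given tacrolimus, a calcineurin inhibitor that restrains T cells, by subcutaneous osmotic pump from the day of stroke (acute, n = 3) or from 7 dpi (delayed, n = 5). Rag2-/- mice, which lack T and B cells and by the paper have a C57BL background, were non-stroked or stroked (n = 3 each). NSG mice were likewise non-stroked or stroked (n = 4 and n = 3). They also lack natural killer cells and carry a NOD background, so that immune deficiency and strain cannot be told apart in them. No non-stroked mice received tacrolimus, and the WT, acute and delayed comparisons therefore share the same 4 non-stroked WT libraries. The methods speak of tissue from the opposite hemisphere and the results of naïve animals, so the controls are called non-stroked here. Non-stroked samples keep the numbers of their titles, which are 1, 3, 4 and 5 for WT and 1, 2 and 4 for Rag2-/- mice, stroked samples are numbered from 1 within their group, and values are given in that order.

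A collagen molecule is a triple helix whose chains repeat the triplet Gly-X-Y, with the small residue glycine packed at the centre. Types I and III assemble into the thick fibres of connective tissue and scars, with type V inside them setting their width, while type IV forms the sheet of basement membranes, which in brain wraps vessels and underlies the meninges. Fibrillar collagen is sparse in healthy brain and is known from fibrotic scars, where fibroblasts of vessels and meninges are a main source.

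The length of the unbroken repeat set the fibrillar genes apart, while the ranges of the other classes overlapped. In the longest reading frame of each gene (GENCODE M21, GRCm38), the longest run without interruption counted 216 to 344 triplets in fibrillar genes (median 338), 30 to 66 in basement membrane genes (median 41) and 23 to 113 in the others (median 52). The first triplets of that run are shown for a chain of each kind, Col1a1 (chr11:94936224-94953042, 338 triplets) and Col4a1 (chr8:11198423-11312826, 40 triplets), with the glycine codons in capitals.
Col1a1: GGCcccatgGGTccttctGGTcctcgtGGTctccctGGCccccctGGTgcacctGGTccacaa
Col4a1: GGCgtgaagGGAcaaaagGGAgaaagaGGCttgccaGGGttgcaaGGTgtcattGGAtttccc

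Promoter windows are shown for Col1a2 and Col3a1, which rose after stroke, for Col5a1, which did not pass the test in any stroke comparison, and for the type IV genes Col4a1, Col4a2 and Col4a6, whose values differed. Each window holds 250 bases before and 50 after a start site, from RefSeq on GRCm38.p6, and 35 of the 44 genes had a window. Capitals mark TATAAA, the TATA box, GGGCGG, known as a GC box, TGANTCA, known as an AP-1 site, and CCAAT, the box named after its letters, all searched on both strands, and no motif contains another.
Col1a2, chr6:4505368-4505667, plus strand: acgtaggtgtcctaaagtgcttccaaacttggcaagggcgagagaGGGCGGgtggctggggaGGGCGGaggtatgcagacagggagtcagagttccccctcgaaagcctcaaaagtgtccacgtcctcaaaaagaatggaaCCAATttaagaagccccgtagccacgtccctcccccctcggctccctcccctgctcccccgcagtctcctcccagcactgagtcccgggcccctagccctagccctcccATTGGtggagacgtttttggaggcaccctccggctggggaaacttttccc
Col3a1, chr1:45311288-45311587, plus strand: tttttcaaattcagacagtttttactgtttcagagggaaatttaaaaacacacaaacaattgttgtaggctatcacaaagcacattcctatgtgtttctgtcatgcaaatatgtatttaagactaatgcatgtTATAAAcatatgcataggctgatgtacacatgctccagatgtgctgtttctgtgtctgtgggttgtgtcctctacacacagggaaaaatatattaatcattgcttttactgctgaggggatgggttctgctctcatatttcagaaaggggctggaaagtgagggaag
Col5a1, chr2:27886175-27886474, plus strand: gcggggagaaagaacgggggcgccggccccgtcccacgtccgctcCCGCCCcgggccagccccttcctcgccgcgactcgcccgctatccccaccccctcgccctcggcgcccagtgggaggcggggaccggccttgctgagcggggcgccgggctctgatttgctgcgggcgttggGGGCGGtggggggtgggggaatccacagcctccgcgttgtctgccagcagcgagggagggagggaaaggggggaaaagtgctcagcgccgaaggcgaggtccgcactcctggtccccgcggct
Col4a1, chr8:11312777-11313076, minus strand: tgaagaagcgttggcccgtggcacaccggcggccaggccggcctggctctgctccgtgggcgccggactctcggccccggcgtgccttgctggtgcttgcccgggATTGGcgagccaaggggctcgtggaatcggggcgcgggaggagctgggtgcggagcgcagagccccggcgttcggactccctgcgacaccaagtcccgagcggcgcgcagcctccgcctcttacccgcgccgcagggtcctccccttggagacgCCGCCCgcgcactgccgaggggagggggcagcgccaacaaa
Col4a2, chr8:11312555-11312854, plus strand: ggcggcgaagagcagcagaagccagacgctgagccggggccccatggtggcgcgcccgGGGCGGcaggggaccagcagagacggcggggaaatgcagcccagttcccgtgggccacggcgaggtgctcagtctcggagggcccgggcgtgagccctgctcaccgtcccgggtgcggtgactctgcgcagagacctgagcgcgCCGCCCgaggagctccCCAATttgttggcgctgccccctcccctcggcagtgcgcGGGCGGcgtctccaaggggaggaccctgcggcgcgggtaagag
Col4a6, chrX:141474027-141474326, minus strand: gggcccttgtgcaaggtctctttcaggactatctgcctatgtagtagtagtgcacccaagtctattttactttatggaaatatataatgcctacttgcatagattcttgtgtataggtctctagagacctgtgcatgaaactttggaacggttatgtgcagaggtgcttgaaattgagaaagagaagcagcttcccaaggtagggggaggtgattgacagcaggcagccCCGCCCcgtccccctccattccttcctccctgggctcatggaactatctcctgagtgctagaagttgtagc

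Col4a1 and Col4a2 run in opposite directions from RefSeq start sites that lie 21 bases apart, so their windows share 78 bases. The RefSeq start sites of Col4a5 and Col4a6 on chromosome X lie 1343 bases apart, also in opposite directions. The Col1a2 window held 2 CCAAT boxes and 2 GC boxes, the Col3a1 window 1 TATA box and none of the other motifs, and the Col5a1 window 2 GC boxes alone. A GC box stood in 23 of 38 collagen windows (60.5%) and in 35.7% of 32851 windows of the same length in the genome, a CCAAT box in 34.2% and 37.4%, a TATA box in 13.2% and 13.6%, and an AP-1 site in 2.63% and 7.81%. These are matches of letters, and no binding was measured.

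Total counts ranged from 17789044 to 43403413 per sample, of which collagen genes took 0.0505% to 0.304%. The titles name a cohort Imm2 (20 samples, median 37223696 counts) and a cohort TF (9 samples, median 23155303 counts). All non-stroked, Rag2-/- and NSG samples were in Imm2, all 5 delayed samples in TF, and the stroked WT and acute samples were split. Rag2 had counts in 1 of 29 samples, a stroked WT one, so it could not check the labels. Il2rg, which is disrupted in NSG mice, measured 0.681 to 1.05 CPM in non-stroked NSG and 0.716 to 0.871 CPM in non-stroked WT mice, with overlap, and 0.784 to 0.979 CPM in stroked NSG against 2.11 to 3.46 CPM in stroked WT mice, without overlap. The 3 neuron markers summed to 2487 to 5282 CPM over all samples. Levels are CPM, counts scaled to a common library size with edgeR's TMM factors. A gene is said to have risen or fallen where edgeR's quasi-likelihood test gave an adjusted p (Benjamini-Hochberg, over 17031 genes) below 0.05 with an absolute log2 fold change above 1. The ± after a log2 fold change is its standard error, approximated from the test statistic.

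Some libraries stood apart from their groups. Acute samples 1 and 2 had 47.6 and 23.3 CPM summed over Col1a1, Col1a2 and Col3a1, against 19.4 to 30.7 CPM in non-stroked WT mice, and 448 and 378 CPM over 3 astrocyte markers, against 275 to 365 CPM. Acute sample 3 had 299.8 and 1187 CPM for the same sums, and stroked WT mice 203 to 508 and 1039 to 1431 CPM. For acute samples 1 and 2 the mouse number in the name of the deposited file also differs from that in the title, so results that rest on them hold for the libraries labelled acute. Delayed sample 5 (1271 CPM over the 3 collagen genes) and stroked NSG sample 2 (1006 CPM) exceeded every other library. Results that rest on these libraries are given without them as well.

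In non-stroked WT brain, type VI and type IV chains led the collagen transcripts. Per kilobase of exon (RPKM, from CPM and the joined length of all annotated exons), Col6a1 stood at 14.1 ± 2.06 (SD, n = 4) and Col4a2 at 14.01 ± 1.46, levels that did not differ beyond their spread. The order between genes depends on that length, which can exceed the length of the main transcript. Col4a1, the partner of Col4a2 in the main type IV molecule, followed at 7.71 ± 0.925, and then Col5a1 at 4.86 ± 0.800 and Col25a1, a collagen gene of neurons, at 4.57 ± 0.648. Col19a1 at 4.52 ± 0.487, also a neuronal collagen gene, and Col11a2 at 4.17 ± 0.421 came next. Col5a1, Col25a1, Col19a1 and Col11a2 did not differ beyond their spread from one another. Col3a1 stood at 0.340 ± 0.0705 and Col1a1 at 1.36 ± 0.254, and Col10a1 was the scarcest at 0.0223 ± 0.0189. Col1a1, Col1a2 and Col3a1 together made up 2.48% to 3.64% of the summed collagen RPKM in these 4 mice, 3.40% to 4.60% in non-stroked Rag2-/- mice and 2.57% to 5.52% in non-stroked NSG mice.

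After stroke, the make-up shifted towards types I and III. The same 3 genes held 15.99% to 28.3% of the summed collagen RPKM in stroked WT mice, 18.3% to 19.99% in stroked Rag2-/- mice, 10.4% to 40.3% in stroked NSG mice and 18.1% to 38.7% in delayed mice, each range above that of its non-stroked line. In acute mice the share spanned 2.48% to 20.01%, from the non-stroked level to the stroked. Col4a1 with Col4a2 held 24.1% to 26.2% in non-stroked and 13.2% to 16.9% in stroked WT mice. Shares are relative to one another, and no test was run on them.

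**Figure D1:**
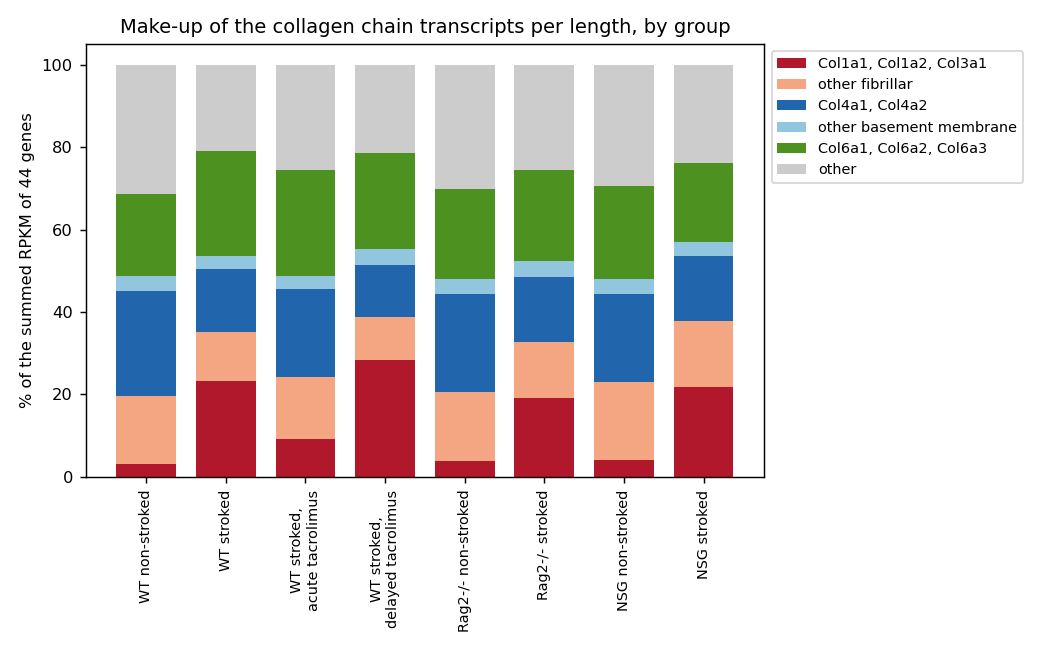
Mean share (%) of the summed RPKM of the 44 collagen genes in each of the 8 groups, stacked by 6 sets of chains. Col1a1, Col1a2 and Col3a1 average 3.26% in non-stroked and 23.3% in stroked WT mice, 9.27% in acute and 28.5% in delayed mice.

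Stroke in WT mice raised 16 of the 44 collagen genes and lowered none, where 6.76% of all genes tested rose. By class, 5 of 11 fibrillar, 3 of 8 basement membrane and 8 of 25 other genes rose, and the median log2 fold change over the 44 was 0.48, against -0.00045 over all genes. The largest log2 fold changes were those of Col3a1, Col1a2 and Col1a1, the chains of types III and I. Col5a1, Col4a2 and Col15a1 had values of 0.00, -0.09 and -0.22.

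Col3a1 (chr1:45311538-45349706) encodes the single chain of type III collagen, which is laid down early in wounds. It measured 2.36, 3.78, 3.34 and 3.88 CPM in the non-stroked WT mice and 52.3, 78.5, 110.1 and 123 CPM in the stroked ones, with no overlap and a log2 fold change of 4.76 ± 0.80 (edgeR adjusted p = 0.000147). Col1a1, the main chain of type I collagen, measured 7.46, 10.4, 7.48 and 10.3 CPM without stroke and 66.8, 96.05, 116 and 142 CPM with it (3.56 ± 0.68, edgeR adjusted p = 0.000502). All stroked values again lay above all non-stroked ones. Its partner Col1a2 rose from 9.57, 16.5, 13.1 and 15.2 CPM to 84.2, 113, 229.5 and 243 CPM (3.62 ± 0.64, edgeR adjusted p = 0.000261). Per length, the ratio of Col1a1 to Col1a2 overlapped between non-stroked (1.08 to 1.48) and stroked mice (0.961 to 1.61), while that of Col3a1 to Col1a1 was 0.212 to 0.299 without and 0.523 to 0.631 with stroke, with no overlap.

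The chains of type V collagen, which helps start fibrils, had unlike values. Col5a2 rose from 4.93, 4.05, 4.85 and 5.28 CPM to 14.6, 18.9, 29.2 and 29.1 CPM (2.26 ± 0.46, edgeR adjusted p = 0.000967), and Col5a3, at 3.53, 3.81, 3.23 and 3.44 CPM without and 7.37, 5.86, 9.91 and 8.55 CPM with stroke, rose too (1.17 ± 0.22, edgeR adjusted p = 0.000469). Col5a1, the chain with which both can assemble, measured 49.6, 39.5, 33.2 and 42.7 CPM without stroke and 54.1, 38.3, 41.4 and 31.2 CPM with it. The groups overlapped, and the 95% interval of the log2 fold change ran from -0.41 to 0.42, with a sign that turned under some of the other settings. The per-length ratio of Col5a1 to Col5a2 was 7.74 to 11.4 without and 1.21 to 4.19 with stroke. Of the other fibrillar genes, Col11a2 had an edgeR adjusted p of 0.0134 at a log2 fold change of 0.49, below the fold required, and Col2a1 (0.17), Col24a1 (0.05) and Col27a1 (0.47) did not pass. Col11a1, a cartilage collagen gene that is also expressed in brain, measured 22.2, 23.1, 12.9 and 21.4 CPM without and 18.8, 18.8, 27.9 and 25.8 CPM with stroke, with overlap (0.20 ± 0.24).

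**Figure D2:**
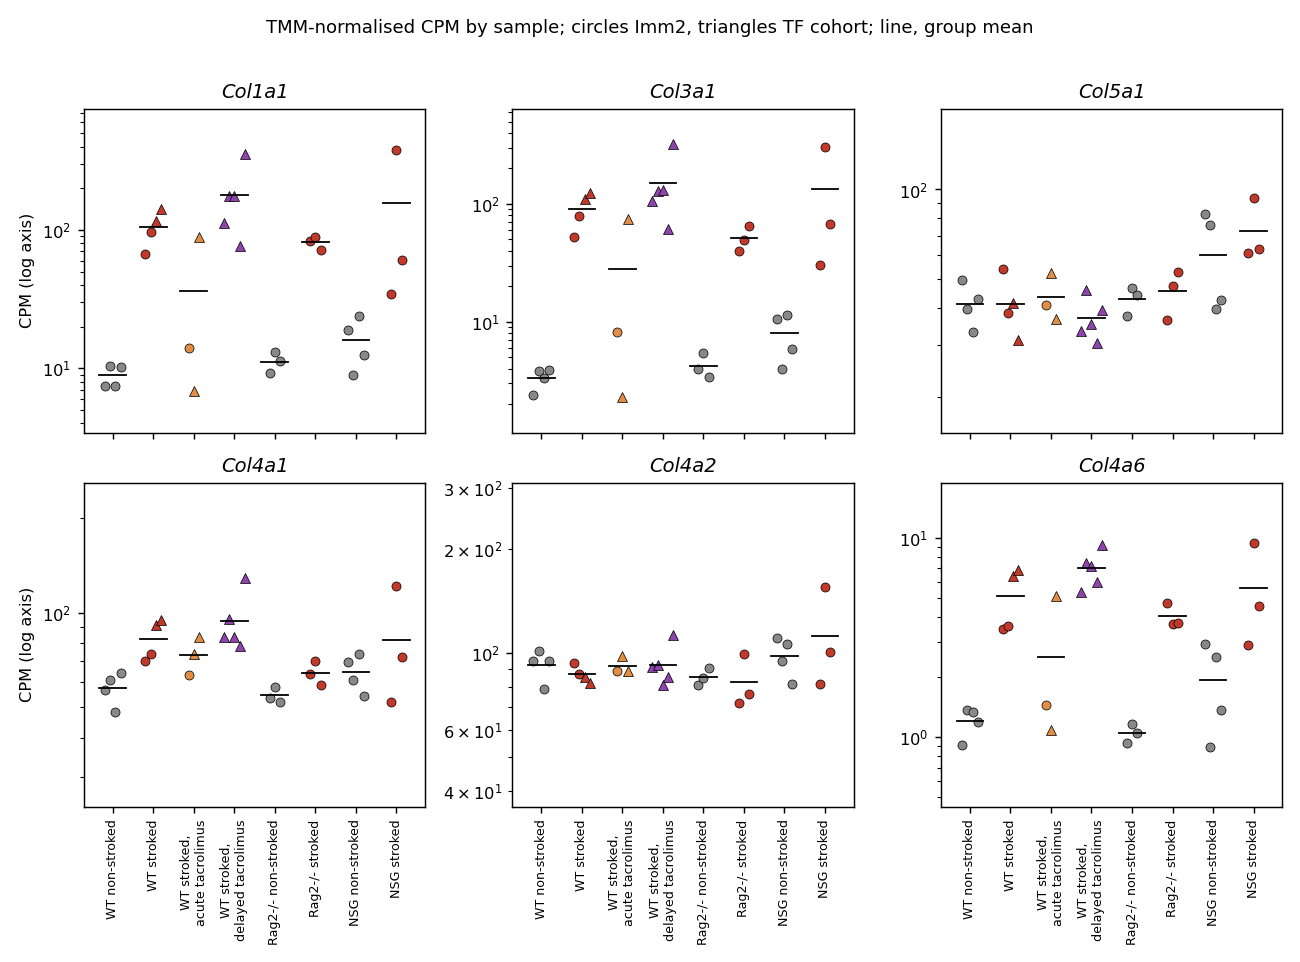
TMM-normalised CPM on a log axis for 6 collagen genes in every sample of the 8 groups, with circles for the Imm2 cohort, triangles for the TF cohort and a line at the group mean. Col1a1 and Col3a1 of all 4 stroked WT mice lie above all 4 non-stroked WT mice, while 2 of the 3 acute samples lie near the non-stroked level.

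Among basement membrane genes, the abundant pair Col4a1 and Col4a2 differed from the scarce pair Col4a5 and Col4a6. Col4a1 measured 56.5, 61.1, 48.3 and 64.2 CPM without stroke and 70.1, 73.8, 91.3 and 94.5 CPM with it, groups that did not overlap, at a log2 fold change of 0.52 ± 0.18 (edgeR adjusted p = 0.0372) below the fold required. Col4a2, whose promoter window overlaps that of Col4a1, measured 95.1, 102, 79.1 and 95.02 CPM and 93.8, 86.99, 85.4 and 81.96 CPM, with overlap (-0.09 ± 0.14, 95% interval -0.37 to 0.19). The per-length ratio of Col4a1 to Col4a2 was 0.527 to 0.599 without and 0.663 to 1.02 with stroke. The pair overlaps by 22 exonic bases on opposite strands, and whether counting used strand is not given in the sources used here.

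Col4a5 and Col4a6 encode chains of another type IV network, known from smooth muscle and epithelia. Col4a6 rose from 0.911, 1.36, 1.33 and 1.18 CPM to 3.48, 3.61, 6.39 and 6.87 CPM (2.08 ± 0.41, edgeR adjusted p = 0.00076) and Col4a5 from 3.13, 4.19, 3.55 and 3.63 CPM to 6.54, 6.22, 13.3 and 12.9 CPM (1.42 ± 0.32, edgeR adjusted p = 0.00242). In both, the stroked mice of the TF cohort (samples 3 and 4) were higher than those of Imm2, and all were above the non-stroked mice. Col18a1, from whose product endostatin is cut, rose and measured 4.38, 6.50, 6.23 and 4.78 CPM without and 8.76, 8.002, 14.9 and 17.3 CPM with stroke (1.15 ± 0.37, edgeR adjusted p = 0.0236). Col15a1, its relative in vessel walls, measured 10.3, 11.6, 8.64 and 7.09 CPM without and 9.06, 7.70, 7.21 and 8.37 CPM with stroke (-0.22 ± 0.17). It overlapped between the groups and did not pass, nor did Col4a3 (-0.65 ± 0.71) and Col4a4 (0.40 ± 0.47).

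The other class was led by type VI collagen, whose beaded filaments link cells to the matrix. Col6a1 measured 65.8, 65.8, 48.4 and 67.6 CPM without stroke and 139, 128, 143 and 174 CPM with it (1.24 ± 0.23, edgeR adjusted p = 0.000384). Col6a2 rose from 20.8, 23.6, 19.4 and 21.8 CPM to 51.1, 48.7, 69.8 and 61.5 CPM (1.43 ± 0.28, edgeR adjusted p = 0.000709) and Col6a3 rose too, at 3.67, 4.92, 3.77 and 5.06 CPM without and 9.21, 8.03, 11.6 and 12.8 CPM with stroke (1.25 ± 0.38, edgeR adjusted p = 0.0176). These 3 chains build 1 molecule, and for each the groups were apart. The per-length ratio of Col6a1 to Col6a2 overlapped between non-stroked (4.75 to 6.02) and stroked mice (3.89 to 5.38). Col6a5 (1.36 ± 0.49, edgeR adjusted p = 0.0413) and Col6a4 (1.03 ± 0.37, edgeR adjusted p = 0.0399), which encode alternative type VI chains, rose as well, Col6a4 with overlap between the groups.

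Col14a1, a collagen of fibril surfaces, rose from 1.99, 1.60, 1.56 and 1.54 CPM to 2.58, 5.75, 8.13 and 8.13 CPM (1.87 ± 0.51, edgeR adjusted p = 0.00953), and the transmembrane collagen gene Col23a1 rose too, at 8.34 to 9.17 CPM without and 13.3 to 21.3 CPM with stroke (1.02 ± 0.23, edgeR adjusted p = 0.00235). Col10a1, the collagen gene of growth-plate cartilage, had 0 to 5 counts in non-stroked and 9 to 32 in stroked WT mice (2.94 ± 1.10, edgeR adjusted p = 0.0495), few reads for a fold. Col12a1, another fibril-surface collagen gene, measured 26.3, 30.2, 22.7 and 23.03 CPM without and 24.5, 33.5, 42.9 and 39.3 CPM with stroke (0.46 ± 0.35). The type VIII genes, whose short chains form networks under endothelia, measured 3.25, 3.54, 8.70 and 4.87 CPM and 5.76, 7.08, 13.2 and 10.8 CPM for Col8a1 (0.85 ± 0.50) and 1.76, 2.50, 7.85 and 5.63 CPM and 4.37, 4.50, 10.8 and 12.3 CPM for Col8a2 (0.84 ± 0.53). Col9a3, a fibril-associated gene, measured 8.86, 9.90, 16.6 and 13.1 CPM and 15.6, 12.6, 18.2 and 20.3 CPM (0.46 ± 0.28). These 4 overlapped between groups and did not pass. Col25a1 measured 61.9, 69.9, 52.3 and 52.8 CPM without and 38.8, 46.3, 57.5 and 47.6 CPM with stroke (-0.32 ± 0.17), also with overlap.

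Some of the 44 genes passed in none of the 5 stroke comparisons, Col19a1 among them. Col19a1 measured 35.9, 31.1, 28.2 and 29.4 CPM in non-stroked and 18.2, 24.1, 24.9 and 15.2 CPM in stroked WT mice (-0.60 ± 0.26). In NSG mice it measured 28.7 to 38.1 CPM without and 6.93 to 24.2 CPM with stroke (-0.88 ± 0.29). In both lines every stroked mouse lay below every non-stroked one, but the edgeR adjusted p was 0.0894 in WT mice, and in NSG mice 0.0299 at a change under the fold required. In WT mice, the genes of this class not yet named had log2 fold changes of 0.42 for Col7a1, the anchoring fibril gene of skin, 0.94, 0.39 and 0.46 for the type IX genes, 0.47 for Col13a1 and 0.13 for Col17a1, which encode transmembrane collagens, 0.80 for Col16a1, 0.42 for Col20a1, 0.39 for Col22a1, -0.27 for Col26a1, -0.18 for Col28a1 and -0.85 for Col6a6. None of them passed the test, Col16a1 and Col9a1 only because of the fold required (edgeR adjusted p = 0.001025 and 0.02997).

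The cohort moved with these values. Col1a1, Col1a2 and Col3a1 summed to 203 and 288 CPM in the stroked WT mice of Imm2 and to 456 and 508 CPM in those of TF. Within Imm2 alone 7 genes rose: Col3a1, Col1a2, Col1a1, Col5a2, Col4a6, Col6a1 and Col6a2. With cohort as a covariate the same 7 rose, and Col6a6 fell (-1.22, edgeR adjusted p = 0.0238). The shares of all genes that rose in these fits were not computed. Whether the lower counts are particular to collagen genes therefore cannot be told. In Imm2 alone the log2 fold changes were 4.29 for Col3a1 and 3.20 for Col1a1 (edgeR adjusted p = 0.000184 and 0.00209). In the 8 fits that each left out 1 WT sample, Col18a1 passed in 4, Col6a4 in 3, Col6a5 in 2 and Col10a1 in 1. The other genes that rose passed in at least 6.

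**Figure D3:**
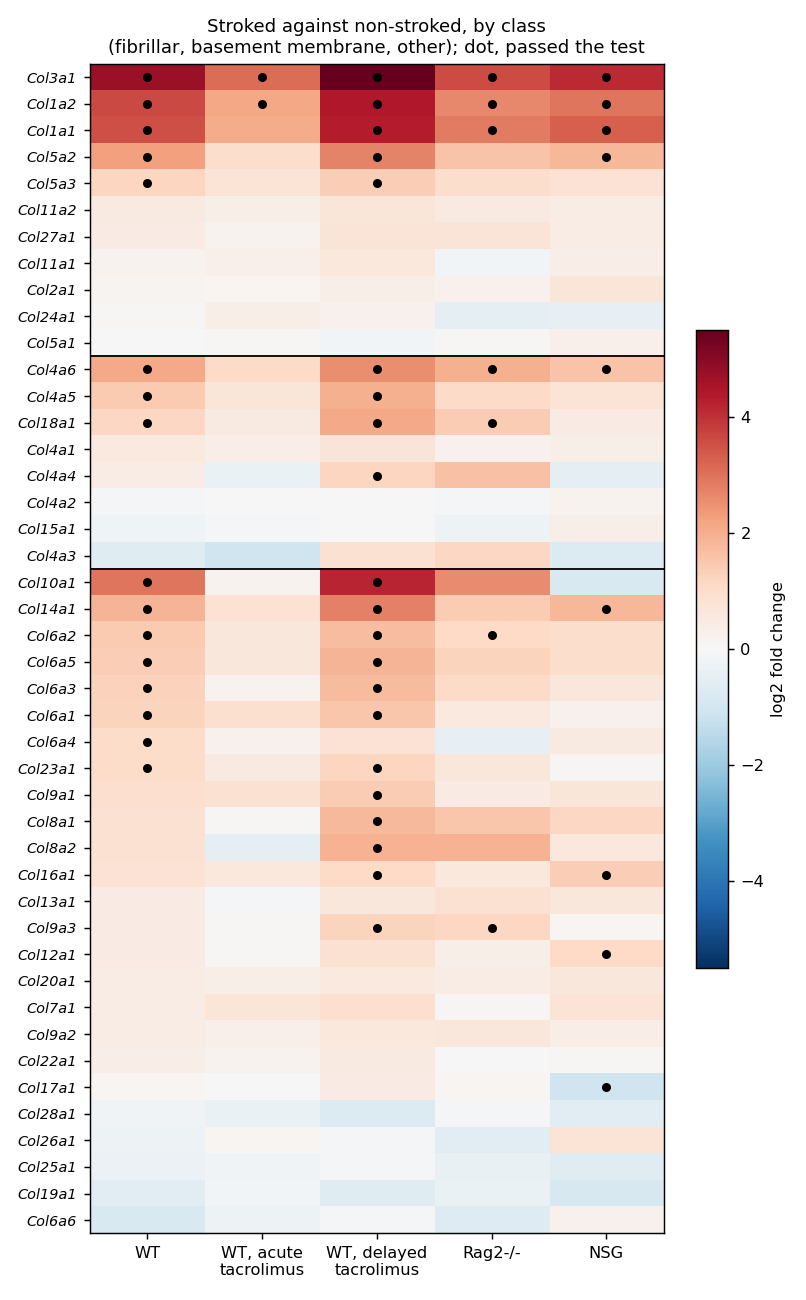
Log2 fold changes, stroked against non-stroked, of the 44 genes by class in 5 comparisons, with a dot where a gene passed the test. Col3a1 and Col1a2 carry a dot in all 5 columns and Col1a1 in 4, and the acute column holds 2 dots against 21 in the delayed column.

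Markers of other cells moved beside the collagens. Of 11 fibroblast and meningeal markers tested, 5 rose after stroke in WT mice, and the 12 on the list summed to 128 to 216 CPM without stroke and 291 to 534 CPM with it. Of 8 markers of pericytes and smooth muscle, 1 rose (sums 203 to 238 and 182 to 236 CPM), and of 6 endothelial markers 0 (sums 147 to 187 and 77.5 to 136 CPM). In bulk tissue more cells of a type and more RNA per cell cannot be told apart, and the part of these cells in the collagen values was not tested. The microglia and macrophage genes Cd68 (2.35 ± 0.36) and Aif1 (1.63 ± 0.26) and the astrocyte gene Gfap (2.77 ± 0.33) rose, 2 of 4 and 1 of 3 of their lists, and 0 of 3 neuron, 0 of 3 oligodendrocyte, 0 of 2 blood and 0 of 2 tested skeletal muscle markers rose or fell. The neuron markers summed to 4671 to 5282 CPM in non-stroked and 2879 to 4423 CPM in stroked WT mice, without overlap, and to 2487 to 3282 CPM in delayed mice, where 1 of 3 fell against non-stroked WT mice, and their part in the collagen values was not tested either. The cartilage gene Acan measured 6.92 to 8.52 CPM without and 5.22 to 9.84 CPM with stroke, and 0 of 3 tested cartilage and bone markers rose, with the bone gene Bglap at 0 in 2 of 4 non-stroked and 1 of 4 stroked mice.

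With acute tacrolimus, stroke raised 2 of 44 collagen genes, where 2.28% of all genes rose. Col3a1 measured 8.13, 2.29 and 73.9 CPM in the 3 acute mice (3.06 ± 0.79, edgeR adjusted p = 0.0218) and Col1a2 25.5, 14.1 and 137 CPM (2.11 ± 0.64, edgeR adjusted p = 0.0416). In both genes sample 3 was far above the others, and sample 2 lay within or just below the non-stroked range. Col1a1 measured 13.97, 6.87 and 88.7 CPM and did not pass (2.03 ± 0.68, edgeR adjusted p = 0.0588). Without sample 3, neither Col3a1 (0.69) nor Col1a2 (0.54) passed, without non-stroked sample 1 or 5 the count was 0, without non-stroked sample 3 or 4 it was 1, and without acute sample 1 or 2 it was 4. With cohort as a covariate it was 0. Beside this, 1 of 11 fibroblast markers rose, and the list summed to 169.5, 115 and 374 CPM in samples 1 to 3.

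With tacrolimus delayed to 7 dpi, 21 of 44 collagen genes rose and none fell, where 11.5% of all genes rose, and the median log2 fold change was 0.89 against 0.0036 over all genes. Col3a1 measured 106, 129, 130.1, 61.4 and 323 CPM in the 5 delayed mice (5.48 ± 0.81, edgeR adjusted p = 7.68e-06), Col1a1 112, 176, 177, 77.2 and 352 CPM (4.33 ± 0.69, 1.70e-05) and Col1a2 169, 275, 283, 131 and 597 CPM (4.42 ± 0.66, 8.11e-06). Sample 5 was the highest and sample 4 the lowest in each, and all 5 were above the non-stroked mice. The 21 genes held 5 fibrillar, 4 basement membrane and 12 other chains, given here with log2 fold change and edgeR adjusted p, among them Col4a6 (2.55 ± 0.41, 1.79e-05), Col18a1 (2.09 ± 0.37, 5.06e-05) and Col14a1 (2.75 ± 0.51, 8.78e-05). The fibril-associated genes Col9a1 (1.39 ± 0.31, 0.000528), Col9a3 (1.22 ± 0.27, 0.000617) and Col16a1 (1.09 ± 0.16, 6.07e-06), the network-forming genes Col8a1 (1.80 ± 0.49, 0.00337) and Col8a2 (1.92 ± 0.52, 0.00336) and the type VI genes Col6a1 (1.52 ± 0.22, 6.53e-06), Col6a2 (1.68 ± 0.28, 2.47e-05), Col6a3 (1.72 ± 0.37, 0.000452) and Col6a5 (1.88 ± 0.47, 0.00186) were also among them. Col5a2 (2.72 ± 0.45, 3.05e-05), Col5a3 (1.34 ± 0.21, 1.80e-05), Col4a5 (1.94 ± 0.31, 2.23e-05), Col4a4 (1.19 ± 0.45, 0.0286), Col23a1 (1.18 ± 0.22, 0.000119) and Col10a1 (4.19 ± 1.04, 0.00165, on 5 to 86 counts) completed the list with Col1a1 and Col1a2. Col5a1 (-0.16 ± 0.20) and Col4a2 (0.00 ± 0.14) were not in it. Col4a1 (0.71 ± 0.18) was left out only because of the fold required (edgeR adjusted p = 0.001535). Of 11 fibroblast markers 10 rose, with sums of 422 to 1094 CPM, and sample 5 was the highest. Without sample 5, Col3a1 stood at 4.99 and Col1a1 at 3.93. All delayed mice were in TF and all non-stroked mice in Imm2, so this comparison lies between cohorts, and with cohort as a covariate, estimated from the stroked WT and acute samples of both, 5 genes rose: Col3a1, Col1a1, Col1a2, Col6a1 and Col6a2.

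Between stroked mice, 0 of 44 genes passed for acute tacrolimus against untreated WT (0% of all genes by edgeR, 13 collagen genes at an unadjusted p under 0.05, 0 by DESeq2) and 0 of 44 for delayed against untreated WT (0% of all genes by edgeR, 5 at an unadjusted p under 0.05, 0 by DESeq2). The 95% interval of the Col3a1 log2 fold change was -3.18 to -0.23 for acute against WT and -0.51 to 1.95 for delayed against WT, and for Col1a1 -2.87 to -0.19 and -0.36 to 1.89. Without acute sample 3, 8 collagen genes were lower in acute than in untreated mice, among them Col3a1 (-4.05, edgeR adjusted p = 0.00274), Col5a2 (-2.46) and Col18a1 (-1.57). The share of all genes that were lower in that fit was not computed, so the 8 cannot be set against it. Delayed mice were higher than acute mice in 15 of 44 genes (5.22% of all genes were higher). Col10a1, at 0 to 6 counts in acute and 5 to 86 in delayed mice (0.0243, 0 and 0.232 CPM and 0.322, 0.158, 1.61, 0.407 and 4.27 CPM), had the largest value (3.99 ± 1.20, edgeR adjusted p = 0.0232). Col8a2 measured 2.31, 1.75 and 5.41 CPM in acute and 12.8, 11.7, 16.6, 15.03 and 28.2 CPM in delayed mice (2.42 ± 0.61, edgeR adjusted p = 0.0123), without overlap. With log2 fold change and edgeR adjusted p, the others were Col3a1 (2.42 ± 0.76, 0.0276), Col1a2 (2.31 ± 0.66, 0.0181), Col1a1 (2.30 ± 0.69, 0.023), Col5a2 (1.76 ± 0.48, 0.0158), Col4a6 (1.49 ± 0.43, 0.0186), Col4a5 (1.25 ± 0.34, 0.0149), Col4a4 (1.57 ± 0.52, 0.0352), Col18a1 (1.57 ± 0.40, 0.0123), Col14a1 (1.97 ± 0.54, 0.0162), Col8a1 (1.73 ± 0.55, 0.0286), Col6a3 (1.53 ± 0.41, 0.0148), Col9a3 (1.16 ± 0.30, 0.0132) and Col6a2 (1.07 ± 0.30, 0.0168). Without acute sample 3 the count was 15, of which 14 were the same genes (Col8a1 was lost and Col23a1 gained), and the log2 fold changes were 4.76 for Col3a1, 4.06 for Col1a1, 3.84 for Col1a2, 2.91 for Col5a2 and 6.10 for Col10a1. The count was 0 without acute sample 1 or 2, 4 without delayed sample 5, and 0 in the TF cohort alone, a comparison added after seeing the data. Markers of other cells were higher in delayed mice too, 7 of 11 for fibroblasts, 3 of 7 for choroid plexus (sums 4.79 to 24.4 CPM in acute and 18.1 to 869.8 CPM in delayed mice), 2 of 8 for mural cells, 2 of 4 for microglia and macrophages, 1 of 3 for astrocytes and 1 of 3 for cartilage and bone, while 1 of 2 for skeletal muscle was lower, and their part in the 15 genes was not tested.

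In Rag2-/- mice stroke raised 7 of 44 collagen genes, where 4.22% of all genes rose, and lowered none. Col3a1 measured 3.99, 5.38 and 3.37 CPM without stroke and 39.5, 49.5 and 64.5 CPM with it (3.59 ± 0.88, edgeR adjusted p = 0.0111). Col1a1 rose from 9.23, 13.1 and 11.2 CPM to 82.7, 89.04 and 72.01 CPM (2.86 ± 0.76, 0.0186) and Col1a2 from 12.9, 17.7 and 15.4 CPM to 87.7, 106 and 95.6 CPM (2.65 ± 0.72, 0.0208). The stroked mice lay apart from the non-stroked ones in all 3 genes. Col4a6 (1.94 ± 0.48, 0.0128), Col18a1 (1.39 ± 0.44, 0.0478), Col9a3 (1.13 ± 0.33, 0.031) and Col6a2 (1.11 ± 0.33, 0.0328) completed the 7, each with its edgeR adjusted p last, while Col5a2, at 3.99 to 6.14 and 15.1 to 15.8 CPM, had groups apart but an edgeR adjusted p of 0.0614. The count was 0 without non-stroked sample 1 or 4, 2 without non-stroked sample 2, 1 without stroked sample 1, and 14 in a fit of the Rag2-/- groups alone. The log2 fold changes themselves stayed at 3.38 to 3.79 for Col3a1, 2.73 to 2.99 for Col1a1 and 2.54 to 2.77 for Col1a2 when each sample was left out, while Col9a3 ranged from 0.57 to 1.42. Of 11 fibroblast markers 5 rose, with sums of 139.7 to 195 CPM without and 321 to 569.5 CPM with stroke.

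In NSG mice 8 of 44 genes rose (5.01% of all genes rose) and 1 fell (0.470% of all genes fell). Col3a1 measured 10.6, 3.96, 11.5 and 5.82 CPM without stroke and 30.1, 307 and 67.4 CPM with it (4.08 ± 0.78, edgeR adjusted p = 0.00082), and Col1a1 18.8, 8.96, 23.8 and 12.4 CPM and 34.7, 377 and 60.9 CPM (3.30 ± 0.68, edgeR adjusted p = 0.00156). Sample 2 exceeded the other stroked mice several-fold, yet every stroked mouse lay above every non-stroked one. Col16a1, a fibril-associated collagen gene, rose and measured 24.2, 20.9, 24.3 and 18.2 CPM without and 50.9, 67.9 and 49.4 CPM with stroke (1.36 ± 0.17, edgeR adjusted p = 1.92e-05). Col1a2 measured 24.3, 11.6, 27.4 and 13.2 CPM without stroke and 39.04, 322 and 77.7 CPM with it, also without overlap. Col1a2 (2.94 ± 0.65, 0.00254), Col14a1 (1.82 ± 0.53, 0.0167), Col5a2 (1.81 ± 0.47, 0.00855), Col4a6 (1.55 ± 0.42, 0.0109) and Col12a1 (1.08 ± 0.38, 0.0432) completed the 8, each with its edgeR adjusted p last. Without sample 2, 3 genes passed: Col3a1 (2.61) and Col16a1 (1.19) rose and Col19a1 fell (-1.12), and Col1a1 (1.57) had an edgeR adjusted p of 0.0547. Of 11 fibroblast markers 7 rose, with sums of 165 to 374 CPM without and 391, 835 and 513 CPM with stroke.

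The gene that fell in NSG mice was Col17a1, a transmembrane collagen gene of epithelial attachment plaques, from 1.52, 1.24, 1.50 and 1.36 CPM to 0.456, 0.346 and 1.19 CPM (-1.10 ± 0.34, edgeR adjusted p = 0.0241). Stroked samples 1 and 2 were low, sample 3 lay just under the non-stroked range, and without sample 1 or sample 2 the gene did not pass.

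The stroke response was then compared between lines as a difference of log2 fold changes. Between Rag2-/- and WT mice 0 of 44 genes passed (0% of all genes by edgeR, 1 collagen gene at an unadjusted p under 0.05, 0 by DESeq2), and between NSG and WT mice 0 of 44 (0.0117% of all genes by edgeR, 8 at an unadjusted p under 0.05, 1 by DESeq2). For Col3a1 the 95% interval was -3.34 to 0.99 for Rag2-/- and -2.71 to 1.35 for NSG mice, and for Col1a1 -2.56 to 1.16 and -2.04 to 1.51. These intervals are wide on both sides of 0. The gene that DESeq2 called in NSG mice was Col26a1, at 4.33, 2.996, 3.03 and 3.25 CPM without and 5.26, 5.83 and 5.94 CPM with stroke, against 6.44 to 8.03 and 5.08 to 6.69 CPM in WT mice (difference 1.01 ± 0.23, edgeR adjusted p = 0.0865). Every stroked NSG mouse lay above every non-stroked one, while the WT groups overlapped.

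**Figure D4:**
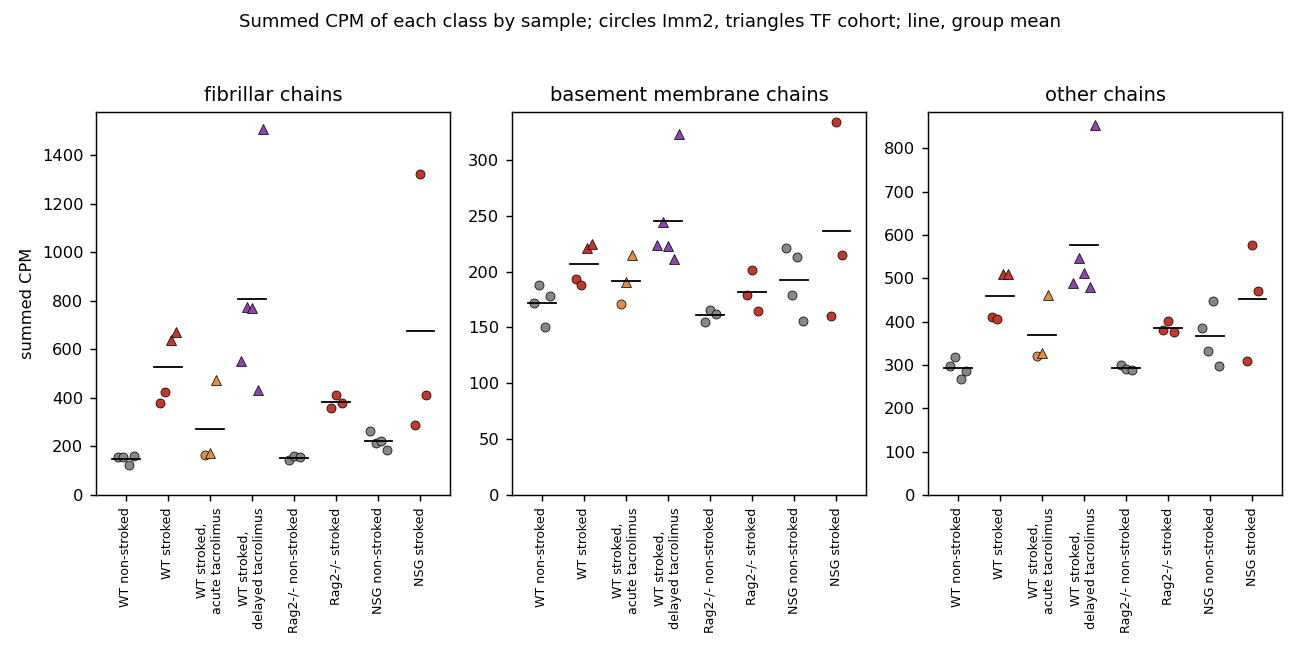
Summed CPM of fibrillar, basement membrane and other chains in every sample by group, with circles for Imm2, triangles for TF and a line at the group mean. In WT mice the fibrillar sums lie at 122 to 158 CPM without and 378 to 670.4 CPM with stroke and the basement membrane sums at 151 to 188 and 188 to 225 CPM, and delayed sample 5 and stroked NSG sample 2 are the highest fibrillar points.

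Without stroke, NSG mice differed from WT mice in 5 collagen genes, 2 higher (1.91% of all genes were higher) and 3 lower (1.45% of all genes were lower). Of these, 3 are neighbouring type VI genes on the minus strand of chromosome 9 (GRCm38), Col6a6 (chr9:105687809-105828160), Col6a5 (chr9:105856078-105960643) and Col6a4 (chr9:105989454-106096783). Col6a4 measured 0.790, 0.635, 1.25 and 0.804 CPM in NSG and 6.43, 2.42, 3.95 and 2.58 CPM in WT mice (-2.14 ± 0.41, edgeR adjusted p = 0.000793). Col6a6 measured 3.80, 2.46, 3.35 and 2.10 CPM in NSG and 0.911, 0.735, 0.875 and 0.852 CPM in WT mice (1.79 ± 0.29, edgeR adjusted p = 9.71e-05), and Col6a5 5.97, 3.73, 3.35 and 1.52 CPM and 1.11, 1.06, 0.928 and 1.35 CPM (1.71 ± 0.49, edgeR adjusted p = 0.0234). The lines did not overlap in any of the 3, and Col6a4 was lower in NSG mice where its neighbours were higher.

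Col26a1, a collagen gene known from testis and ovary, was lower in NSG than in WT mice at 2.996 to 4.33 against 6.44 to 8.03 CPM (-1.06 ± 0.16, edgeR adjusted p = 2.55e-05), and the cartilage collagen gene Col2a1 at 0.510 to 1.08 against 0.740 to 1.96 CPM, with overlap (-1.004 ± 0.31, edgeR adjusted p = 0.0364). Against non-stroked Rag2-/- mice, Col6a6 was higher in NSG mice (1.71 ± 0.32, edgeR adjusted p = 0.000748, with 1.44% of all genes higher), and Col6a4 (-3.19 ± 0.43, edgeR adjusted p = 9.94e-06) and Col26a1 (-1.45 ± 0.17, edgeR adjusted p = 6.68e-07) were lower (1.36% of all genes were lower). In the Rag2-/- mice Col6a4 measured 8.69, 3.71 and 11.4 CPM, Col6a6 0.821, 1.03 and 0.826 CPM and Col26a1 9.46, 9.85 and 8.48 CPM, each apart from the NSG mice. Between Rag2-/- and WT mice without stroke, 0 of 44 passed by edgeR (0.00587% of all genes, 3 collagen genes at an unadjusted p under 0.05, 0 by DESeq2). Without WT sample 3 or 4, 3 of the 5 passed between NSG and WT mice, and whether reads of the NOD strain aligned alike was not tested.

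**Figure D5:**
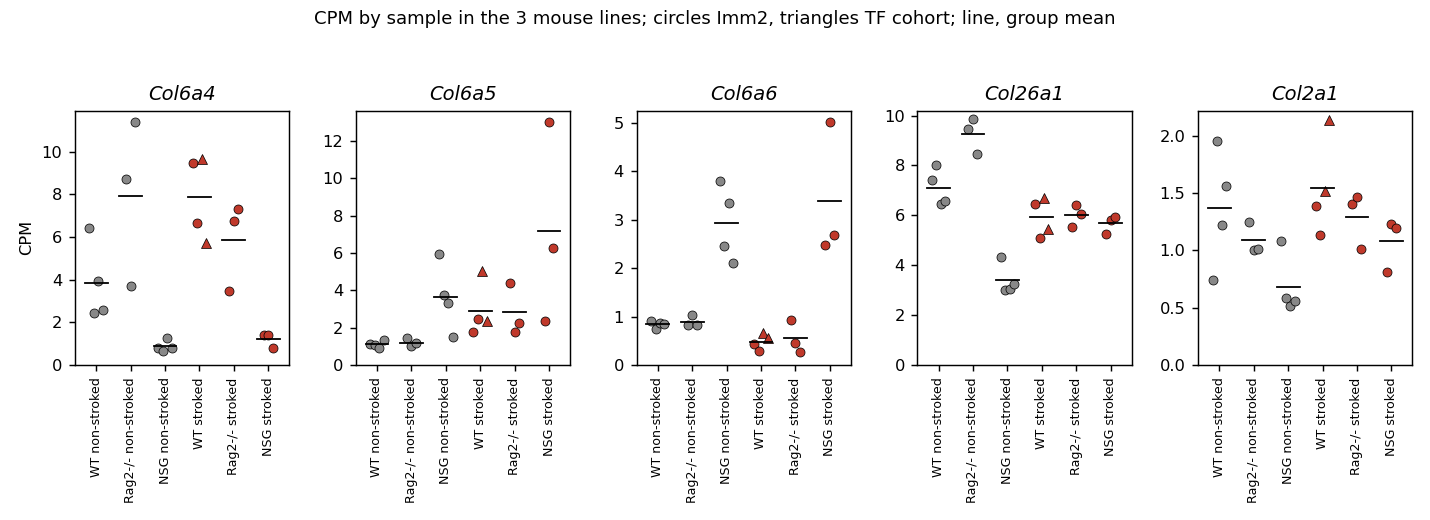
CPM of Col6a4, Col6a5, Col6a6, Col26a1 and Col2a1 in every non-stroked and stroked sample of WT, Rag2-/- and NSG mice, with circles for Imm2, triangles for TF and a line at the group mean. Col6a4 lies at 0.635 to 1.42 CPM in NSG mice and 2.42 to 11.4 CPM in the other lines, and Col6a6 at 2.10 to 5.01 and 0.276 to 1.03 CPM.

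Of 34 genes for hydroxylation, folding, cleavage, cross-linking and coating of collagen, 11 rose after stroke in WT mice, where 6.76% of all genes rose. The count was 1 with acute tacrolimus, against 2.28% of all genes, 16 with delayed tacrolimus (11.5% of all genes), 9 in Rag2-/- mice (4.22% of all genes) and 10 in NSG mice (5.01% of all genes), and none fell. In WT mice the largest log2 fold changes were those of Lum (4.20 ± 0.68, edgeR adjusted p = 0.000114) and Dcn (2.99 ± 0.53), which encode proteoglycans that coat fibrils, and of Lox (3.52 ± 0.63) and Loxl2 (1.83 ± 0.44), which encode cross-linking oxidases. Serpinh1, the collagen chaperone gene, had log2 fold changes of 1.38 ± 0.37 in WT, 1.98 ± 0.36 in delayed, 1.14 ± 0.42 in Rag2-/- and 1.73 ± 0.39 in NSG mice. Its value in acute mice and its adjusted p-values are not given here, so these values do not state where it passed. The prolyl hydroxylase gene P4ha1 (-0.16 ± 0.15) and the procollagen peptidase gene Bmp1 (0.07 ± 0.10) did not pass in WT mice. Lum, Dcn and Fmod also stand on the fibroblast list.

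Of 14 tested genes for collagen receptors, uptake and breakdown, 7 rose in WT mice, 1 with acute and 10 with delayed tacrolimus, 4 in Rag2-/- and 6 in NSG mice, and none fell. The shares of all genes that rose were 6.76%, 2.28%, 11.5%, 4.22% and 5.01% in the same order. The collagenase gene Mmp13 measured 0.0272 to 0.0550 CPM in non-stroked and 5.59 to 19.8 CPM in stroked WT mice, groups far apart. Ctsk, a lysosomal collagenase gene (2.08 ± 0.37), Mrc2, which encodes the collagen uptake receptor (2.004 ± 0.36), Mmp2 (1.94 ± 0.41) and the inhibitory collagen receptor gene Lair1 (1.12 ± 0.18) rose too. The integrin gene Itga1 (-0.20 ± 0.20) and the receptor kinase gene Ddr1 (0.28 ± 0.11) did not pass.

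Markers of the choroid plexus, the tissue that secretes cerebrospinal fluid, differed widely between samples of a group, and in some groups the type VIII genes, Col9a3 and Col4a3 differed with them. The 7 markers, Ttr among them, summed to 1596 CPM in stroked Rag2-/- sample 1 and to 12.6 and 10.5 CPM in samples 2 and 3. Col8a1 measured 19.3, 5.10 and 5.55 CPM in these 3 samples, Col8a2 16.2, 4.07 and 4.93 CPM, Col9a3 38.1, 18.9 and 12.6 CPM and Col4a3 3.33, 0.305 and 0.0919 CPM, with sample 1 the highest each time. Without it Col9a3 stood at 0.57 and did not pass. Among non-stroked WT mice, sample 4 had the highest marker sum (820.4 CPM) and the highest Col8a1 (8.70 CPM) and Col8a2 (7.85 CPM). In delayed mice, sample 2 had the lowest marker sum (18.1 CPM, against up to 869.8 CPM) and the lowest Col8a1 (9.89 CPM), Col8a2 (11.7 CPM) and Col9a3 (18.1 CPM). In stroked NSG mice the marker sums were 22.8, 28.7 and 426 CPM, while Col8a1 measured 3.39, 20.3 and 6.88 CPM and Col8a2 3.75, 12.7 and 6.76 CPM, so that sample 2 was the highest in both genes and sample 3 in the markers. Delayed sample 5, at a marker sum of 831 CPM, had 34.7 CPM of Col8a1, against 18.3 and 11.7 CPM in samples 3 and 4, whose sums were 869.8 and 849.7 CPM. The part of choroid plexus tissue in these values was not tested.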

How the data were processed

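Total RNA was extracted with TRIzol and RNeasy columns, and stranded polyA libraries were sequenced from 29 brain samples. The authors deposited raw read counts per Ensembl gene, 1 file a sample, and the aligner, the genome build of the alignment and the strand setting of the counting are not given in the sources used here. Of 25746 IDs, 25712 were named in GENCODE M21 (GRCm38). The members and all gene lists were chosen with earlier results of these data known. Counts were fitted in edgeR 4.0.16 (R 4.3.3), with 1 quasi-likelihood model of the 8 groups, TMM scaling and edgeR's default filter on low counts, which left 17031 genes. Standard errors were approximated as the absolute log2 fold change divided by the square root of the test's F statistic. Intervals are the log2 fold change ± 1.96 of these standard errors (95%) and are approximate too. CPM used TMM-scaled totals and RPKM the joined length of all annotated exons of a gene. Levels, shares and ratios between genes depend on this length, while the change of a ratio between groups does not. The titles give each library a mouse number but no litter or extraction batch, so p-values measure the spread between these samples, part of which may be technical. Titles of stroked Imm2 samples also carry an f or m, with f in stroked NSG samples 1 and 2 and stroked Rag2-/- sample 1. The letters are not explained, sex was not modelled, and its part in the values was not tested. Per-sample values are given for 21 listed members in the WT comparison and, in other comparisons, for the called members with the 3 largest changes. From the list of collagen-processing genes the 4 with the largest changes in WT mice were named by rule, and the other genes named from that list and the receptor list were chosen after their values were seen. On simulated counts of the WT comparison, edgeR recovered 96 of 100 genes changed 3-fold and 99 of 100 changed 8-fold, with 2 false calls among 16606 genes, and DESeq2 1.42.0 the same numbers with 6 false calls among 17031. The counts were drawn with the dispersions that edgeR had fitted, and only genes with a mean above 1 CPM were changed. They held no cohort difference and no outlying library, so these rates check the code and need not hold for the real samples. Alternatives were another scaling (RLE), 2 other filters, DESeq2, no minimum fold, a fit of the compared groups alone, cohort as covariate or a single cohort, a replicate block, and each sample left out. Shares of all genes that passed were computed for the main fit alone, so counts of collagen genes under the alternatives have no such share beside them.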

Additional observations from a re-analysis of the deposited data

Results flagged for a closer look

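In groups of 4 or 5 samples, 84 sets of CPM values of collagen genes were searched for a sample that lay far from the others of its group by Dixon's criterion, and 9 were found. The criterion flags about 1 in 20 independent sets by chance. These sets share their samples and are not independent, so the 9 cannot be set against that rate. In the delayed mice, 7 of the 9 belonged to sample 5, which was high in Col3a1 (322.6 CPM), Col5a2 (59.3 CPM), Col11a1 (40.3 CPM), Col6a1 (274.9 CPM), Col6a2 (130.9 CPM), Col6a3 (27.7 CPM) and Col14a1 (27.2 CPM). This sample also had the highest sum of fibroblast markers of all samples (1094 CPM), and the part of these cells was not tested. The other 2 were in non-stroked WT mice: Col6a1 was low in sample 4 (48.4 CPM) and Col14a1 high in sample 1 (1.99 CPM).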

How the results depend on the processing

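Log2 fold changes were recomputed for the collagen genes that had passed in each comparison. In the WT comparison Col5a1, Col4a1, Col4a2, Col15a1, Col8a1 and Col12a1, which had not passed, were added. Few of these could therefore newly pass. Genes outside this set that newly passed, such as Col5a2 in Rag2-/- mice with DESeq2 (1.58), are not counted. Of the 1312 values, 1074 kept their direction and side of the threshold, 230 no longer passed, 1 newly passed and 7 changed sign. The 7 were all Col5a1 in the WT comparison: -0.01 with RLE scaling, with DESeq2 and in the fit of the compared groups alone, and -0.16, -0.02, -0.09 and -0.00 without stroked sample 1, non-stroked samples 3 and 4, and stroked sample 3 (up to 0.11 without stroked sample 4). Col3a1, Col1a1, Col1a2, Col5a2, Col4a6, Col6a1 and Col6a2 passed in the WT comparison under all 16 alternatives. RLE moved the median of all genes by -0.0165 to 0.00734 against TMM.

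DESeq2 called 11 genes in Rag2-/- mice, 5 between non-stroked NSG and Rag2-/- mice, and 1 between the NSG and WT responses. With no minimum fold, 11 passed in Rag2-/-, 16 in NSG, 4 in acute and 32 in delayed mice, 10 between non-stroked NSG and WT and 7 between non-stroked NSG and Rag2-/- mice. In fits of the compared groups alone the counts were 14 in Rag2-/-, 4 in NSG and 0 in acute mice, and 0 for delayed against acute. With cohort as a covariate they were 8 in WT, 0 in acute and 5 in delayed mice and 6 for delayed against acute. In Imm2 alone they were 7 in WT and 0 in acute mice, and in TF alone 0 for delayed against acute. The cause of these shifts was not tested.

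With each sample left out in turn, counts ran from 11 to 17 in WT, 0 to 4 in acute, 19 to 22 in delayed, 0 to 7 in Rag2-/- and 3 to 11 in NSG mice. Between non-stroked lines they ran from 3 to 5 for NSG against WT, 3 to 5 for NSG against Rag2-/- (5 without NSG sample 2 or 4) and stayed at 0 for Rag2-/- against WT. Between stroked mice they ran from 0 to 8 for acute against WT, stayed at 0 for delayed against WT, and ran from 0 to 16 for delayed against acute. Response differences gave 0 for Rag2-/- and 0 to 1 for NSG mice, the 1 being Col17a1 without stroked NSG sample 3.

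Replicate numbers of non-stroked samples did not pair them (r from -0.28 to 0.13 over 8 pairs of equal number). With the replicate block, 5 collagen genes passed between NSG and WT mice, 4 higher and 1 lower, of which 2 (Col6a6 and Col26a1) were among the 5 of the report, while Col6a4, Col6a5 and Col2a1 did not pass. In the same samples without the block 6 passed, 3 of them among the 5, and Col6a5 and Col2a1 again did not. Between NSG and Rag2-/- mice 5 passed with the block and 3 without it. Depth limits Col10a1, with 0 to 86 counts a sample.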
